A study of Arabidopsis thaliana with 9 samples.

Results

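Transcripts of Arabidopsis thaliana seedlings carrying the pp4r3a-1 allele were compared with those of the wild-type accession Col-0, gene by gene, in 6 of the 9 poly(A) RNA-seq libraries of the series. The other 3 libraries came from pp4r3a-2, a separate allele of the same gene, and were used to ask where pp4r3a-1 went further. All 3 genotypes were 12-day-old seedlings grown on MS plates in long days, with 3 biological replicates each. The labels gave neither the position of the lesion nor the hour of harvest. Exon counts per gene were fitted across all libraries with edgeR's quasi-likelihood test, and a gene was called at a Benjamini-Hochberg adjusted p under 0.05. Levels are given as exon counts per 1e6 counts after TMM scaling (CPM), changes as log2 fold changes of pp4r3a-1 over Col-0 unless another pair is named, and errors as standard errors (SE). Both alleles were set against the same 3 Col-0 libraries, so their changes against Col-0 are not independent of each other.

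PP4R3A encodes a regulatory subunit of protein phosphatase 4 (PP4), a nuclear serine/threonine phosphatase that in Arabidopsis is known to act in the production of microRNAs. Abscisic acid (ABA) is a hormone of drought and cold responses. It is bound by PYR/PYL receptors, which then inhibit clade A protein phosphatases (PP2Cs) and so release SnRK2 kinases that activate protective genes. In a separate pathway, low sugar or darkness activates the SnRK1 kinase, whose target genes, the dark-inducible genes among them, are repressed when sugar is plentiful.

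Exon counts summed to 22735573 to 27022497 per library in pp4r3a-1, 20733294 to 25802186 in pp4r3a-2 and 23343990 to 25642851 in Col-0. At this depth 3 counts equalled 0.111 to 0.145 CPM, and 22631 of 37869 loci had enough counts to be tested. Libraries of a genotype were close, except that pp4r3a-2 replicate 3 differed from the other two of its group by 8.11 and 11.7 times the sampling noise of counts (chi-square per degree of freedom), against 1.59 to 3.94 for the pairs within the other genotypes and for the remaining pp4r3a-2 pair. Summed shoot markers, photosynthesis genes of the leaf, ran from 37420 to 40010 CPM in pp4r3a-1, from 43420 to 45130 in pp4r3a-2 and from 43560 to 45290 in Col-0, and 8 of 10 were lower and 2 higher in pp4r3a-1. Summed root markers ran from 2147 to 2227 CPM in pp4r3a-1, from 2064 to 2118 in pp4r3a-2 and from 1873 to 1923 in Col-0. Gene by gene, 7 of 13 were higher and 0 lower in pp4r3a-1 (median 0.183). In pp4r3a-2 3 were higher and 7 lower (median -0.286), although the sum lay above Col-0. In bulk seedlings, fewer cells of a type and less RNA per cell cannot be told apart. Summed seed markers stood at 68.3 to 70.9 CPM in pp4r3a-1, 106 to 108 CPM in pp4r3a-2 and 11.0 to 14.9 CPM in Col-0, and summed floral markers at no more than 8.79 CPM in any library.

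PP4R3A itself was only slightly lower in pp4r3a-1. PP4R3A (AT3G06670), on chromosome 3, had 59.2, 64.5 and 63.1 CPM in pp4r3a-1 libraries, 18.7, 18.25 and 18.3 CPM in pp4r3a-2 and 81.2, 79 and 81.6 CPM in Col-0. The 3 genotypes did not overlap, and pp4r3a-1 lay nearer to Col-0 than to pp4r3a-2. Its exon counts fell by 0.37 on the log2 scale in pp4r3a-1 (SE 0.0412, adjusted p 3.44e-10), and pp4r3a-1 exceeded pp4r3a-2 by 1.76 (adjusted p 1.42e-26). Counts summed over the whole gene do not show which part of the transcript was made. Reads assigned to its introns totalled 355 in the 3 pp4r3a-1 libraries, 162 in pp4r3a-2 and 119 in Col-0. That rise over Col-0, 1.575, was not particular to PP4R3A. Introns of all genes rose by a median of 0.998, and those of the PP4 subunit gene PP4R2L by 1.57. Between the alleles PP4R3A introns differed by 1.008 and those of PP4R2L by -0.148. In exon counts of the catalytic subunit genes, PPX2 fell by 0.30 (adjusted p 0.000303), while PPX1 had -0.07 (adjusted p 0.204).

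In pp4r3a-1, 8212 genes were higher than in Col-0, 36.3% of those tested, and 8174 were lower, 36.1%. At least 2-fold changes numbered 2079 higher (9.19%) and 1550 lower (6.85%), and the median change of all genes was -0.003. Against the same controls 8065 genes were higher in pp4r3a-2 (35.6%) and 8093 lower (35.8%), of which 8.45% and 6.24% of the genes tested were at least 2-fold changed. Tested directly, 5361 genes were higher in pp4r3a-1 than in pp4r3a-2 (23.7%) and 5484 lower (24.2%), with 2.71% and 2.28% of all genes differing at least 2-fold. The effect was taken as larger in pp4r3a-1 where a gene was called both against Col-0 and against pp4r3a-2, in one direction, with at least a 2-fold difference in each. This held for 323 genes that rose (1.43%) and 213 that fell (0.941%). Without pp4r3a-2 replicate 3 the numbers were 337 and 216.

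**Figure D1:**
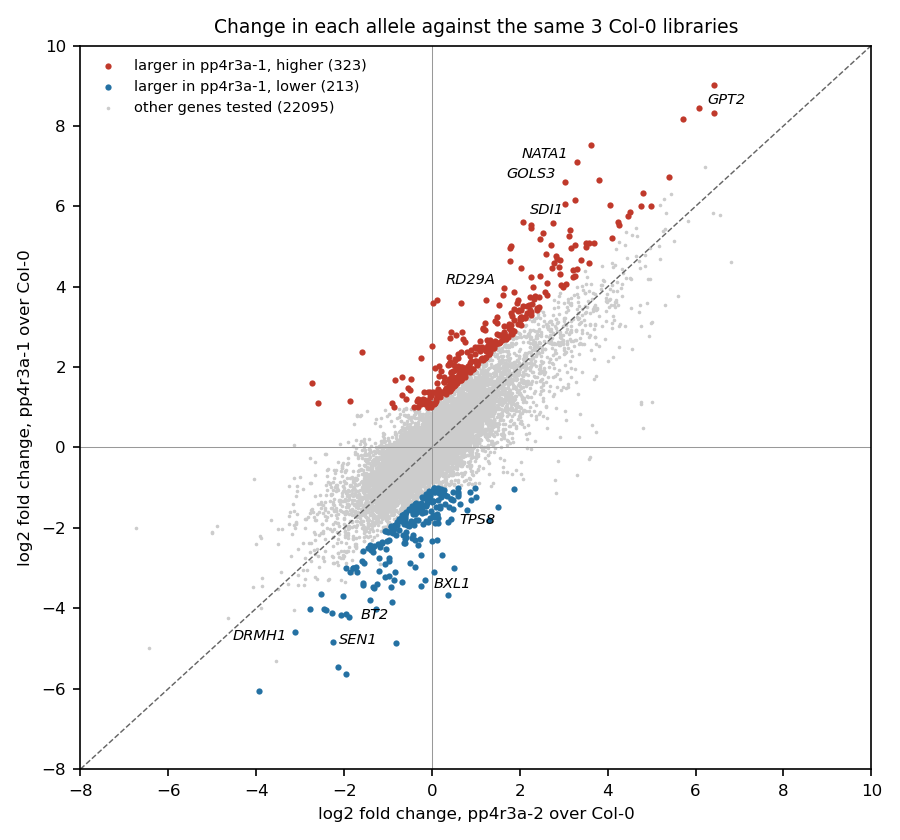
Each point is 1 of the 22631 genes tested, with the log2 fold change of pp4r3a-1 over Col-0 on the vertical axis and of pp4r3a-2 over Col-0 on the horizontal axis; the dashed line marks equal change. The 323 red genes rose and the 213 blue genes fell in pp4r3a-1, each at least 2-fold against Col-0 and against pp4r3a-2, and GPT2, NATA1, GOLS3 and SDI1 stand far above the line while BXL1, SEN1 and BT2 stand far below it.

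The 323 rising genes, of which 294 code for proteins, had a median log2 change of 2.44 in pp4r3a-1 and of 1.09 in pp4r3a-2 over the same Col-0 libraries. The 213 falling genes had medians of -1.84 and -0.43. These values, and the call of each gene between the alleles, follow from how the genes were chosen. Genes of the anthocyanin and clock lists, which were kept out of the genes named by size of change, made up 8 and 1 of the 323 and none of the 213. Both sets lay on the 5 chromosomes in shares near those of all genes tested, with 92 of the 323 on chromosome 1 (28.5%, against 26.5% of genes tested) and 60 on chromosome 3, which carries PP4R3A (18.6%, against 19.6%). Next to the limits, PRP3 just entered with 1.0004 over Col-0 and 1.08 over pp4r3a-2, while AT3G29000 just missed with 2.50 and 0.9994. Among falling genes AT1G15125 entered with -1.52 and -1.0052, and AT2G30600 missed with -0.998 and -1.12.

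Introns gave a readout that the choice had not used, but from the same RNA and libraries, so they are not an independent test. Intron reads made up 3.02% to 3.23% of counts in pp4r3a-1, 2.91% to 2.98% in pp4r3a-2 and 2.0% to 2.1% in Col-0, and scaled to exon depth 73.7% of 11133 genes were higher and 4.95% lower in introns of pp4r3a-1 over Col-0, with a median of 0.998. Introns against Col-0 therefore carried that general shift, while between the alleles the median was 0.081, with 11.5% of genes higher and 7.68% lower. A gene entered with at least 90 intron counts summed over all 9 libraries, so a rising gene could enter through pp4r3a-1 alone. NUDT24, for instance, had 597 intron counts in pp4r3a-1, 53 in pp4r3a-2 and 0 in Col-0. A falling gene could likewise enter through the other genotypes, and the counts that follow are descriptions only. Of the 69 rising genes with enough intron counts, 66 were higher and 0 lower in introns of pp4r3a-1 than of pp4r3a-2. Of the 72 falling genes, 63 were lower and 0 higher. For the falling genes over Col-0, 42 of the 72 were lower in introns and 6 higher.

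The largest rises among genes with a mean of at least 5 CPM were led by GPT2, NUDT24 and NATA1. GPT2 (AT1G61800), a plastid glucose-6-phosphate importer, had 134, 139 and 134 CPM in pp4r3a-1 libraries, 24.6, 26.8 and 27.3 CPM in pp4r3a-2 and 0.666, 0.232 and 0.252 CPM in Col-0. Its log2 change was 8.44 (SE 0.101, adjusted p 1.78e-38) and pp4r3a-1 exceeded pp4r3a-2 by 2.37 (adjusted p 1.3e-29). NATA1 (AT2G39030), which acetylates ornithine and responds to jasmonate, had 30, 30.7 and 29.3 CPM in pp4r3a-1 libraries, 2.33, 2.09 and 1.99 CPM in pp4r3a-2 and 0.196, 0.232 and 0.21 CPM in Col-0. All pp4r3a-1 libraries were thus more than an order of magnitude above every other library. The change of NATA1 was 7.11 over Col-0 (SE 0.135, adjusted p 4.49e-33) and 3.803 over pp4r3a-2 (adjusted p 4.61e-29). GOLS3 (AT1G09350), a galactinol synthase of the raffinose pathway, had 20.7, 22.8 and 20.2 CPM in pp4r3a-1 libraries, 1.49, 1.82 and 2.04 CPM in pp4r3a-2 and 0.196, 0.271 and 0.168 CPM in Col-0. Its change was 6.61 over Col-0 (adjusted p 6.42e-30) and 3.58 over pp4r3a-2 (adjusted p 6.85e-26). The other genes among the 10 largest rises were NUDT24 (8.18), a nudix hydrolase, GBSS1 (6.72), the granule-bound starch synthase, SDI1 (6.16) and GGCT2;1 (5.58) of the sulfur response, BGLU28 (6.03), a beta-glucosidase, the tetratricopeptide-repeat gene AT1G80130 (5.85) and ASG4 (5.75), which overlaps another gene. All 10 were also higher in pp4r3a-1 than in pp4r3a-2, a comparison that shares the pp4r3a-1 libraries.

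Of the 10 largest falls, SEN1, DRMH1, BT2 and BXL1 belong to the dark and sugar-starvation list described next. Outside it, AT4G36850 (AT4G36850), annotated as a PQ-loop repeat protein, had 4.34, 4.67 and 3.68 CPM in pp4r3a-1 libraries, 28, 27.9 and 29.4 CPM in pp4r3a-2 and 68.3, 67.8 and 71.1 CPM in Col-0. It fell by 4.02 over Col-0 (adjusted p 4.12e-35), and the groups did not overlap. AT5G40450 fell by 3.84 (SE 0.265, adjusted p 1.22e-05), with 25.4, 47.6 and 41.3 CPM in pp4r3a-1 libraries, 234, 271 and 358 CPM in pp4r3a-2 and 549, 542 and 538 CPM in Col-0, a wide spread between replicates of the mutants in a gene that overlaps AT5G40440. AT2G05540, a glycine-rich protein gene, fell by 4.11, AT5G18600, of the thioredoxin superfamily, by 3.49, and AT4G27450, which overlaps AT4G27440, by 3.34. The copper amine oxidase gene AT1G31690 had the largest fall of the 10, -4.98, and was the exception among them, being higher in pp4r3a-1 than in pp4r3a-2 by 1.45 (adjusted p 2.52e-05). Further genes with a large difference between alleles were FTM1 (AT1G43800), an acyl-carrier-protein desaturase gene, and BGAL4, a beta-galactosidase gene, which fell by 3.09 and 3.199 over Col-0 and by 2.25 and 2.22 over pp4r3a-2.

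Genes induced by darkness and sugar starvation fell together in pp4r3a-1, and most stood lower there than in pp4r3a-2. Of 17 listed genes 14 were lower and 3 higher in pp4r3a-1, with a median of -1.79, and 12 were lower and 5 higher in pp4r3a-2, with a median of -0.51. Between the alleles 14 were lower and 1 higher in pp4r3a-1 (2 higher without pp4r3a-1 replicate 2 or pp4r3a-2 replicate 1), and 9 met the rule for a larger effect. SEN1 (AT4G35770), a senescence and dark-inducible gene also called DIN1, had 7.75, 8.23 and 7.72 CPM in pp4r3a-1 libraries, 47, 48.1 and 45.4 CPM in pp4r3a-2 and 217, 226 and 232 CPM in Col-0. The 3 groups were far apart, and SEN1 fell by 4.83 over Col-0 (SE 0.0515, adjusted p 6.58e-41) and 2.57 over pp4r3a-2 (adjusted p 8.88e-30). BT2 (AT3G48360), a BTB/TAZ-domain protein that responds to sugar and nitrogen, had 27.4, 24.1 and 23.4 CPM in pp4r3a-1 libraries, 126, 128 and 122 CPM in pp4r3a-2 and 456, 461 and 472 CPM in Col-0. It fell by 4.21 (SE 0.0471, adjusted p 3.13e-40). Between the alleles BT2 fell by 2.33 (adjusted p 3.91e-31). DRMH1, of the dormancy-associated family, fell by 4.60, and its relative DRM1 (AT1G28330) by 2.74.

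In BXL1, ASN1 and DIN10 the fall was several times smaller on the log2 scale in pp4r3a-2 than in pp4r3a-1. BXL1 (AT5G49360), a beta-xylosidase of the cell wall, had 28.1, 28.5 and 29.1 CPM in pp4r3a-1 libraries, 248, 246 and 254 CPM in pp4r3a-2 and 287, 282 and 269.6 CPM in Col-0. Its change was -3.29 in pp4r3a-1 (SE 0.0418, adjusted p 1.82e-38), -0.17 in pp4r3a-2 (adjusted p 8.62e-05) and -3.12 between the alleles (adjusted p 1.62e-36), the last being the largest fall between alleles that the naming rule picked. ASN1 (AT3G47340), also called DIN6, an asparagine synthetase and widely used as a marker of SnRK1 activity, had 13.2, 13.6 and 12.2 CPM in pp4r3a-1 libraries, 67.8, 65.5 and 67.1 CPM in pp4r3a-2 and 93.5, 92.3 and 99.7 CPM in Col-0. It fell by 2.87 over Col-0 (SE 0.0513, adjusted p 6.22e-34) and by 2.36 over pp4r3a-2 (adjusted p 1.26e-29), with a change of -0.51 in pp4r3a-2 (adjusted p 1.96e-13), and it overlaps AT3G47341. DIN10 (AT5G20250), a raffinose synthase-like gene, had 146, 143 and 148 CPM in pp4r3a-1 libraries, 499, 485 and 494 CPM in pp4r3a-2 and 771, 749 and 745 CPM in Col-0. It fell by 2.37 over Col-0 and by 1.76 over pp4r3a-2 (adjusted p 1.12e-35 and 1.28e-30), with a change of -0.62 in pp4r3a-2 (adjusted p 6.21e-18). The 3 groups did not overlap in any of these genes, and the pp4r3a-2 libraries lay nearest to Col-0 in BXL1.

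The trehalose-phosphate synthase-like genes TPS8, TPS9, TPS10 and TPS11, whose transcripts are known to be repressed by sugar, were all lower in pp4r3a-1. TPS8 had 32.1, 29 and 31.1 CPM in pp4r3a-1 libraries, 143, 141 and 145 CPM in pp4r3a-2 and 105, 107 and 107 CPM in Col-0. The pp4r3a-1 libraries lay below all others, while the pp4r3a-2 libraries lay above Col-0. Its change was -1.79 in pp4r3a-1 (adjusted p 7.46e-30), 0.43 in pp4r3a-2 (adjusted p 2.18e-12) and -2.22 between alleles (adjusted p 1.23e-31). TPS11 showed the same arrangement, with 19, 18.5 and 20 CPM in pp4r3a-1 libraries, 70.5, 68.2 and 72.6 CPM in pp4r3a-2 and 53.9, 53.1 and 53.4 CPM in Col-0. Its change was -1.48 in pp4r3a-1, 0.40 in pp4r3a-2 and -1.88 between alleles (adjusted p 2.12e-25, 1.64e-10 and 7.02e-28). TPS9 fell by 1.62 in pp4r3a-1 against 0.44 in pp4r3a-2, and TPS10 by 1.75 and 0.79. The 3 listed genes that rose were DIN2 (3.42), a beta-glucosidase gene, DIN11 (0.53) and DIN9 (0.63).

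**Figure D2:**
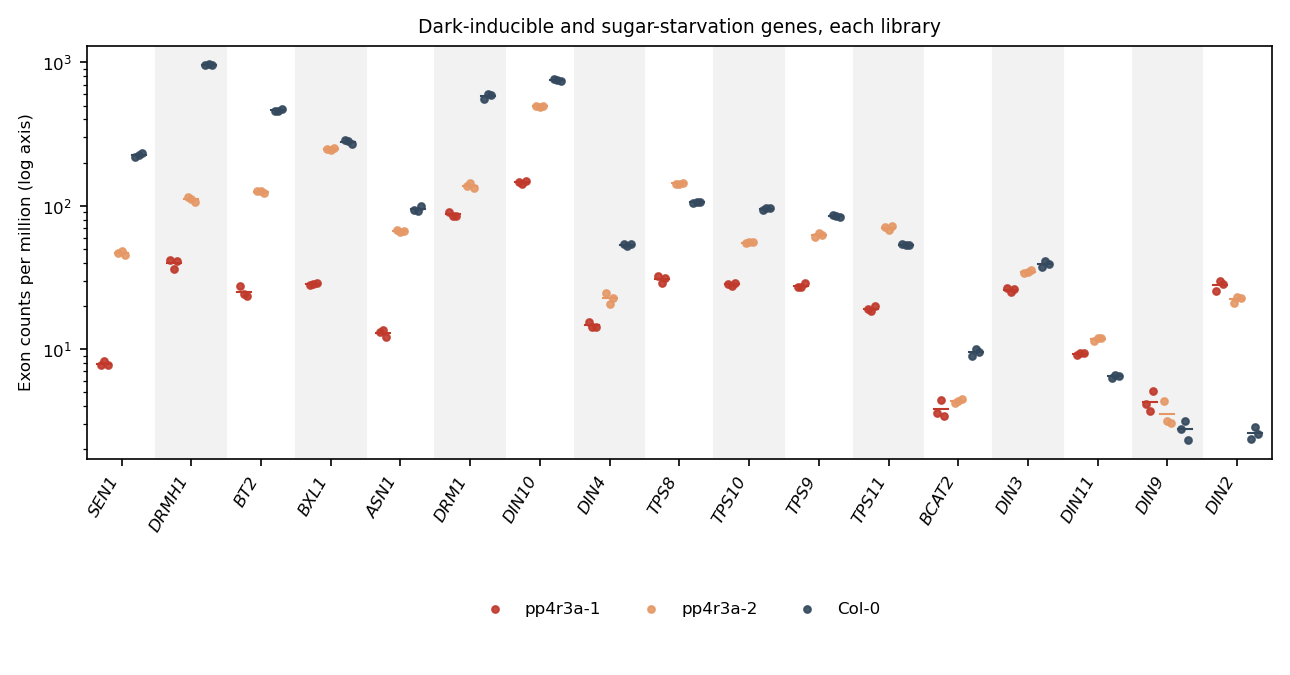
Points are the CPM of single libraries on a log axis, and short lines the means, for the 17 dark and sugar-starvation genes ordered from the largest fall to the largest rise in pp4r3a-1. In 14 of them the 3 pp4r3a-1 libraries were called below Col-0, and the pp4r3a-2 libraries lie close below Col-0 for BXL1 and above it for TPS8 and TPS11.

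Further genes linked to sugar status were chosen after their values were seen. bZIP1 (AT5G49450), a transcription factor that acts downstream of SnRK1, had 4.64, 5.02 and 3.99 CPM in pp4r3a-1 libraries, 16, 15.1 and 15.1 CPM in pp4r3a-2 and 17, 16.6 and 15.8 CPM in Col-0. Only the pp4r3a-1 libraries stood apart: the change was -1.85 in pp4r3a-1 (adjusted p 7.7e-21), -0.10 in pp4r3a-2 (adjusted p 0.202) and -1.75 between alleles (adjusted p 4.72e-19). AKINBETA1, a beta subunit of SnRK1, fell by 2.401 in pp4r3a-1 and 1.23 in pp4r3a-2. The hexose transporter gene STP1 fell by 2.75 (adjusted p 8.37e-36) and by 1.55 between alleles, the BTB/TAZ genes BT1 and BT5 by 2.11 and 1.62, and the inositol oxygenase gene MIOX2 by 1.91. In the other direction, the sucrose exporter gene SWEET13 (AT5G50800) had 26.5, 25.9 and 25.4 CPM in pp4r3a-1 libraries, 7.93, 7.35 and 7.89 CPM in pp4r3a-2 and 0.979, 1 and 1.09 CPM in Col-0. Its rise was 4.66 over Col-0 (adjusted p 5.64e-31) and 1.75 over pp4r3a-2. TPS5 rose by 2.76 and the inositol phosphate synthase gene MIPS1 by 1.78, against 0.15 in pp4r3a-2.

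Many genes of darkness and sugar status also follow the time of day. Of 28 clock genes, 18 were higher and 7 lower in pp4r3a-1 (median 0.784) and 17 higher and 10 lower in pp4r3a-2 (median 0.802). CCA1, a morning gene, changed by 5.38 in pp4r3a-1 against 5.26 in pp4r3a-2, and PRR3, an evening gene, by -2.38 and -2.74, whereas PRR9 and FKF1 were higher in pp4r3a-1 than in pp4r3a-2 by 1.14 and 1.72. The part of clock phase and harvest hour in the falls of dark-inducible genes was not tested.

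Protective genes of the ABA, cold and drought responses rose in pp4r3a-1, and nearly all stood higher than in pp4r3a-2. Of 21 listed genes 18 were higher and 2 lower in pp4r3a-1 (median 1.63), and 15 were higher and 4 lower in pp4r3a-2 (median 0.651). Between the alleles 19 were higher and 0 lower in pp4r3a-1. The genes RD29A, RD20, LEA4-5, KIN1 and COR413-PM1 met the rule for a larger effect. The 250 bases before the annotated start of 4 genes are printed because they hold the binding cores of factor classes of these responses: ACGTG, the core of the ABA-responsive element, and CCGAC, the core of the drought- and cold-responsive element bound by the CBF factors. RD29A, RD20 and LEA4-5 come from this list, and GOLS3 from the raffinose list. Both cores were searched on either strand (reverse complements CACGT and GTCGG), and CACGTG, which matches on both strands, counts once per strand. Matches are in capitals and the last base is the one before the start. Sequences are from RefSeq, assembly TAIR10.1, at chr5:21240467-21240716 on the plus strand for RD29A, chr1:3019389-3019638 on the plus strand for GOLS3, chr5:2090431-2090680 on the minus strand for LEA4-5 and chr2:14146556-14146805 on the minus strand for RD20.
RD29A: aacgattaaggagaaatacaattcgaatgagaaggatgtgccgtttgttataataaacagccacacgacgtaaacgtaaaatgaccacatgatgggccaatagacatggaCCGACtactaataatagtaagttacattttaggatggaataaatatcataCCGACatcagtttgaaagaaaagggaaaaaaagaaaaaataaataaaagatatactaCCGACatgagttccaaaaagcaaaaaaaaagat
GOLS3: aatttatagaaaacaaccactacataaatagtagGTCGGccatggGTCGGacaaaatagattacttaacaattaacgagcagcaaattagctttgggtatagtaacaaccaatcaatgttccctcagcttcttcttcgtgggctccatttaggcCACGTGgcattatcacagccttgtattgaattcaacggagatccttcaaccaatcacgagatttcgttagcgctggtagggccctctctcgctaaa
LEA4-5: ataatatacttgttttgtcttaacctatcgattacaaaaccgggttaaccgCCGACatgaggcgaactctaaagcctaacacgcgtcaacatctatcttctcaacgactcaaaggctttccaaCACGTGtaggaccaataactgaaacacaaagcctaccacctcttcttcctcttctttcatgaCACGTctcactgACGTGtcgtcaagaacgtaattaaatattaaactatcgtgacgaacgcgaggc
RD20: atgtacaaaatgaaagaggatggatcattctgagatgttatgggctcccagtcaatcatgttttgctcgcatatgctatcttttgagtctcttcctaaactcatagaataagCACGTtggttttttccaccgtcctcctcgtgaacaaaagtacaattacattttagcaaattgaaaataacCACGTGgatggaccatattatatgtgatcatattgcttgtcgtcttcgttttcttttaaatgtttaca
The RD29A window held 3 CCGAC and no ACGTG, GOLS3 held 2 of each, LEA4-5 held 4 ACGTG and 1 CCGAC, and RD20 held 3 ACGTG. Cores past the annotated start or further upstream were not searched. A core missing from a window, such as ACGTG in RD29A, may therefore lie outside it.

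Among the 22527 tested genes with such a window, 23.5% held ACGTG and 12.7% held CCGAC. Of the 21 protective genes 14 held ACGTG (66.7%) and 9 held CCGAC (42.9%). A high share of ACGTG was not particular to them. It was 64.3% in the iron list, 60.7% in the clock list and 56.5% in the jasmonate list. The O-acetylserine cluster, described below, had 66.7%. Other lists had low shares, such as 14.3% for nitrogen and 7.14% for cell wall growth. Of 321 windows of the larger rises, 129 held ACGTG (40.2%) and 47 held CCGAC (14.6%), beside 34.5% and 14.5% of the 2045 windows of all genes at least 2-fold higher in pp4r3a-1. Of 213 windows of the larger falls, 51 held ACGTG (23.9%) and 17 held CCGAC (7.98%). A match of 5 letters is not a binding site, and these shares were not tested.

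RD29A (AT5G52310), a classic reporter of cold and ABA signalling, had 561, 561 and 620.0 CPM in pp4r3a-1 libraries, 114, 116 and 117 CPM in pp4r3a-2 and 37.8, 37.2 and 36 CPM in Col-0. The groups did not overlap. Its change was 3.97 over Col-0 (SE 0.0446, adjusted p 3.34e-40), 1.65 in pp4r3a-2 and 2.33 between alleles (adjusted p 7.16e-33). RD20 (AT2G33380), a caleosin of lipid bodies that responds to ABA, had 18.4, 17.3 and 17.5 CPM in pp4r3a-1 libraries, 7.13, 7.23 and 7.39 CPM in pp4r3a-2 and 0.901, 1.12 and 1.64 CPM in Col-0. It rose by 3.87 over Col-0 (adjusted p 1.43e-26) and 1.29 over pp4r3a-2. LEA4-5 (AT5G06760), a late embryogenesis abundant protein, had 12.5, 11.1 and 12.4 CPM in pp4r3a-1 libraries, 5.09, 4.19 and 3.92 CPM in pp4r3a-2 and 1.25, 1.198 and 1.26 CPM in Col-0, with changes of 3.27 over Col-0 (adjusted p 3.52e-23) and 1.44 over pp4r3a-2. COR413-PM1, a cold-regulated membrane protein gene, rose by 1.53 and 1.02. RD22, by contrast, rose by 2.03 in pp4r3a-1 against 1.91 in pp4r3a-2, and differed by only 0.12 between alleles.

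**Figure D3:**
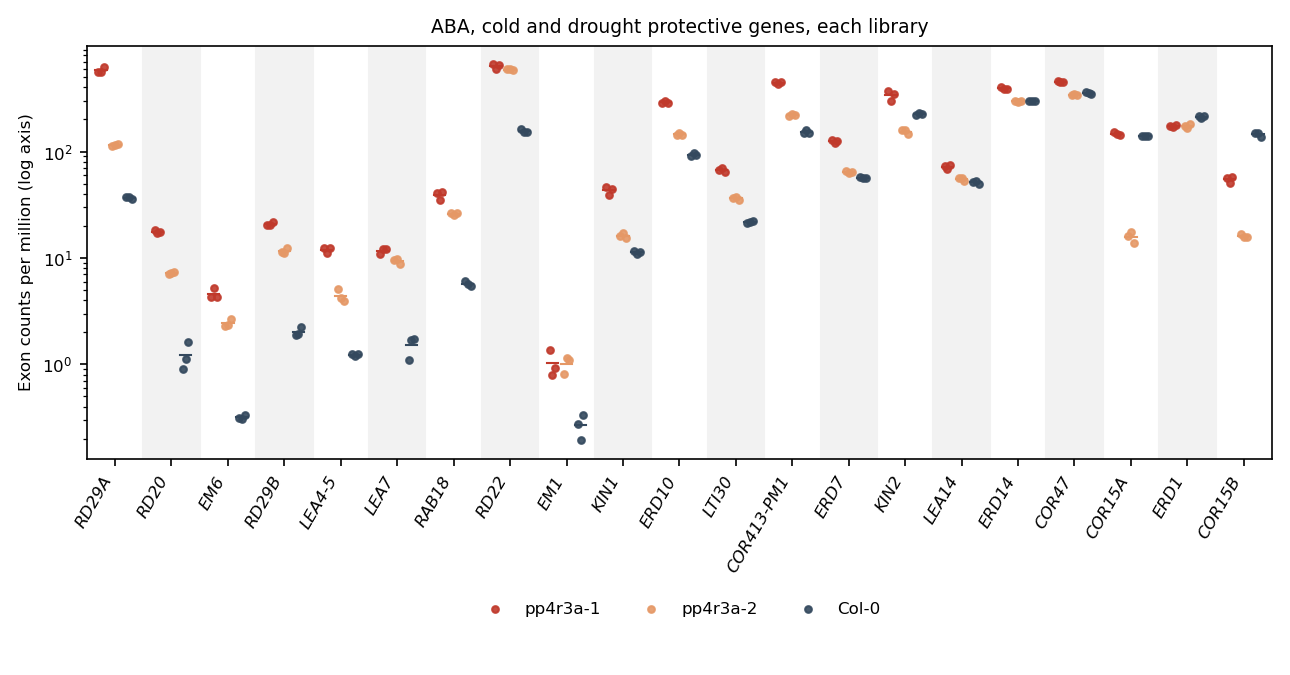
Points are the CPM of single libraries on a log axis, and short lines the means, for the 21 ABA, cold and drought protective genes ordered from the largest rise to the largest fall in pp4r3a-1. RD29A leads on the left with 561 to 620.0 CPM in pp4r3a-1, and COR15A and COR15B near the right have their lowest values in pp4r3a-2.

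The cold-regulated genes COR15A and COR15B, whose proteins protect chloroplast membranes in freezing, behaved otherwise. COR15A (AT2G42540) had 153, 146 and 143 CPM in pp4r3a-1 libraries, 16, 17.62 and 13.8 CPM in pp4r3a-2 and 139, 141 and 140.3 CPM in Col-0. The pp4r3a-1 libraries stood near Col-0 (change 0.07, adjusted p 0.122) and only pp4r3a-2 was low, so the alleles differed by 3.21 (adjusted p 7.16e-33). COR15B had 56.2, 50.5 and 57.5 CPM in pp4r3a-1 libraries, 16.8, 15.8 and 15.6 CPM in pp4r3a-2 and 148, 149 and 138 CPM in Col-0, with changes of -1.41 in pp4r3a-1 and -3.17 in pp4r3a-2. Their introns showed a different order: COR15A intron reads totalled 131 in pp4r3a-1, 5 in pp4r3a-2 and 3 in Col-0, and those of COR15B 323, 24 and 10. KIN2 likewise had 558 intron reads in pp4r3a-1, 156 in pp4r3a-2 and 76 in Col-0, with an exon change of 0.58 in pp4r3a-1 and -0.56 in pp4r3a-2. KIN1 had 46.8, 39 and 44.2 CPM in pp4r3a-1 libraries, 16.2, 17.1 and 15.4 CPM in pp4r3a-2 and 11.7, 10.9 and 11.4 CPM in Col-0, a rise of 1.94 (adjusted p 4.86e-25). COR15A and COR15B are related neighbours, as are KIN1 and KIN2, so some reads may have been split between the copies, which was not tested. COR15B overlaps AT2G42520.

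The core of ABA signalling changed in opposite directions by role: receptors fell and PP2C phosphatases rose. Of 9 receptor genes 8 were lower in pp4r3a-1, with a median of -0.498, and PYL2 had 0.04 (adjusted p 0.812). In pp4r3a-2 6 were lower and 3 higher. PYL8 (AT5G53160) had 38.2, 37.7 and 36.7 CPM in pp4r3a-1 libraries, 73.3, 68.4 and 65.1 CPM in pp4r3a-2 and 141, 133 and 135 CPM in Col-0. It fell by 1.86 over Col-0 (adjusted p 5.98e-30) and 0.88 over pp4r3a-2, and no library overlapped between the groups. PYL5 (AT5G05440) had 11.1, 9.06 and 11 CPM in pp4r3a-1 libraries, 24.8, 26.5 and 22.6 CPM in pp4r3a-2 and 32.4, 32 and 33.1 CPM in Col-0. It fell by 1.64 over Col-0 (adjusted p 2.72e-22) and by 1.25 over pp4r3a-2, and was the receptor that met the rule for a larger effect. PYR1 fell by 1.53 in pp4r3a-1 and 0.88 in pp4r3a-2. PYL6 and PYL4 fell by 0.64 and 0.30 in pp4r3a-1 but rose by 0.41 and 0.36 in pp4r3a-2.

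All 8 clade A PP2C genes tested rose in pp4r3a-1, with a median of 1.49, and all 8 rose in pp4r3a-2, with a median of 0.70. These genes encode the phosphatases that the receptors inhibit. The listed phosphatase gene AHG1 had too few counts to be tested (2, 1 and 1 in Col-0 and 4, 8 and 4 in pp4r3a-1). Between the alleles 7 were higher in pp4r3a-1. HAI1 (AT5G59220) had 14.5, 13.3 and 14.7 CPM in pp4r3a-1 libraries, 3.73, 3 and 4.12 CPM in pp4r3a-2 and 2.43, 2.32 and 1.76 CPM in Col-0. Only the pp4r3a-1 libraries were far from the rest, with a change of 2.70 over Col-0 (SE 0.112, adjusted p 2.94e-22) and 1.98 over pp4r3a-2 (adjusted p 1.61e-18). HAI2 had 5.82, 6.96 and 6.93 CPM in pp4r3a-1 libraries, 2.16, 2.65 and 3.03 CPM in pp4r3a-2 and 0.627, 0.464 and 0.588 CPM in Col-0, a rise of 3.54 (adjusted p 1.02e-19). ABI2 and ABI1, the phosphatases first found through ABA-insensitive mutants, rose by 1.72 and 1.26, and ABI1 overlaps AT4G26070. Of the SnRK2 kinases, SNRK2.2 fell by 0.65, SNRK2.3 by 0.11 and OST1, the kinase of guard cells, rose by 0.39.

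**Figure D4:**
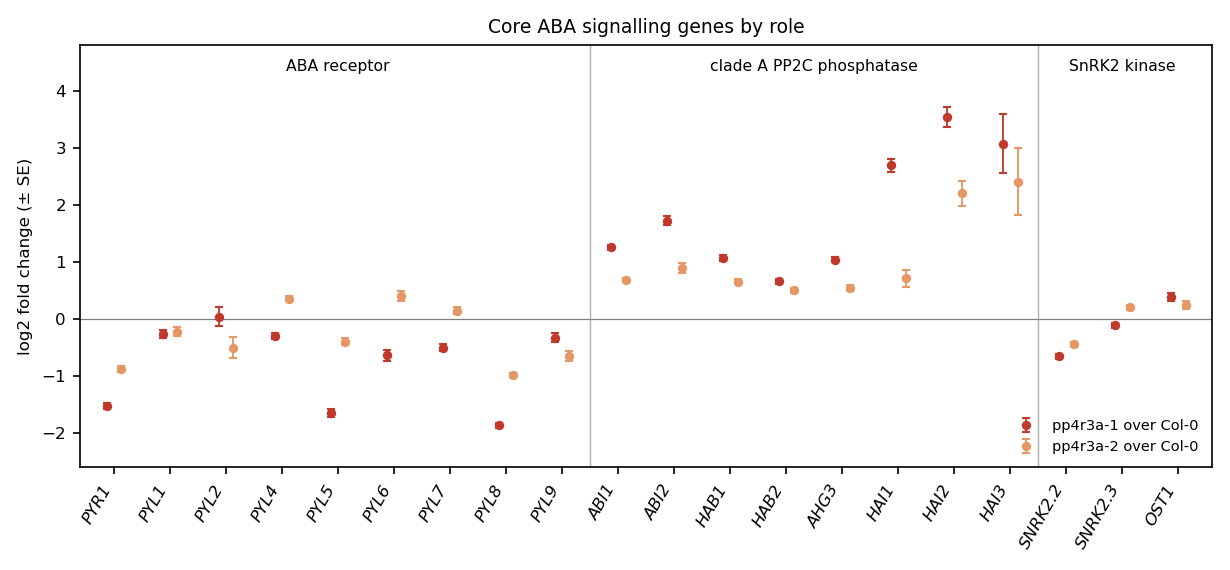
Log2 fold change over Col-0 with its SE for each core ABA signalling gene, pp4r3a-1 left and pp4r3a-2 right of each pair, grouped by role. In pp4r3a-1 8 of 9 receptors lie below 0 and all 8 tested PP2C genes above it. HAI3 rests on very few Col-0 counts.

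Among 13 ABA and cold transcription factors 11 were higher and 1 lower in pp4r3a-1 (median 1.66). ZAT10 (AT1G27730), a zinc-finger repressor of stress responses, had 37.2, 33.9 and 35.9 CPM in pp4r3a-1 libraries, 15.7, 15.1 and 16.3 CPM in pp4r3a-2 and 2.74, 3.21 and 4.12 CPM in Col-0, and rose by 3.42 over Col-0 (adjusted p 2.18e-29) and 1.19 over pp4r3a-2. The cold regulator CBF3 (AT4G25480) had 2.89, 1.58 and 1.89 CPM in pp4r3a-1 libraries, 0.212, 0.277 and 0.347 CPM in pp4r3a-2 and 0.196, 0.193 and 0.126 CPM in Col-0. Its change was 3.59 in pp4r3a-1 (adjusted p 2.31e-12), 0.66 in pp4r3a-2 (adjusted p 0.279) and 2.94 between alleles (adjusted p 1.96e-10), on few counts and with an overlapping gene. CBF2 rose by 3.91 in pp4r3a-1 and 3.45 in pp4r3a-2. The ABA-response factor ABF3 rose by 1.74, ABI5 by 1.19 and ABF2 by 0.72, and RD26 fell by 0.44.

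ABA metabolism rose on both the synthesis and the breakdown side, with 9 of 10 genes higher and 0 lower (median 1.73). NCED3 (AT3G14440), the stress-induced enzyme of ABA synthesis, had 15.9, 16 and 16 CPM in pp4r3a-1 libraries, 6.11, 5.96 and 5.81 CPM in pp4r3a-2 and 3.49, 3.25 and 3.07 CPM in Col-0. It rose by 2.29 over Col-0 (adjusted p 4.02e-23) and 1.42 over pp4r3a-2. The ABA hydroxylase genes CYP707A1, CYP707A2 and CYP707A3, which inactivate the hormone, rose by 2.56, 3.84 and 3.08, and between alleles CYP707A1 differed by 1.21 and CYP707A3 by -0.62. The early synthesis gene ABA1 rose by 2.63 in pp4r3a-1 and 2.86 in pp4r3a-2.

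Protective sugars and proline followed in part. All 4 galactinol synthase genes rose in pp4r3a-1 (median 2.55), with GOLS2 at 2.67, GOLS4 at 2.44 and GOLS1, the lowest, at 0.35, and GOLS2, GOLS3 and GOLS4 met the rule for a larger effect. Over all 13 genes of raffinose and proline metabolism, 7 were higher and 3 lower (median 0.355). The raffinose synthase gene RS5 rose by 1.87. P5CS1 (AT2G39800), which makes the proline precursor, had 260.5, 243 and 263 CPM in pp4r3a-1 libraries, 121, 114 and 118 CPM in pp4r3a-2 and 46.3, 45.5 and 44.1 CPM in Col-0, a rise of 2.50 (adjusted p 6.47e-35), and it overlaps AT2G39795. PRODH1, which degrades proline, fell by 1.70.

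Starch genes of both synthesis and breakdown went both ways. Of 17 synthesis genes 10 were higher and 7 lower in pp4r3a-1 (median 0.235). Beside GPT2 and GBSS1, the rises were largest in the sugar-induced large subunits of ADP-glucose pyrophosphorylase: APL3 (AT4G39210) had 103, 105 and 104 CPM in pp4r3a-1 libraries, 44.7, 45.9 and 47.3 CPM in pp4r3a-2 and 9.71, 10.5 and 10.3 CPM in Col-0. APL3 rose by 3.35 (adjusted p 4.24e-36) and APL4 by 2.84, and over pp4r3a-2 they were higher by 1.18 and 1.21. The main leaf subunit gene APL1 fell by 0.17, the phosphoglucomutase gene PGM1 by 1.06 and the starch synthase gene SS4 by 0.997. Of 14 breakdown genes 7 were higher and 7 lower in pp4r3a-1 (median 0.062), and 5 were higher and 9 lower in pp4r3a-2 (median -0.506). Between alleles 13 were higher in pp4r3a-1 and 0 lower, but only 1 met the rule for a larger effect. Among them the beta-amylase gene BAM3 rose by 1.49 over Col-0 and 1.09 over pp4r3a-2, and the debranching enzyme gene ISA3 changed by 0.61 in pp4r3a-1 and -0.63 in pp4r3a-2.

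Sulfur deficiency markers rose further in pp4r3a-1. The 6 genes of the O-acetylserine cluster, a list written after values were seen, were all higher (median 4.11). SDI1 (AT5G48850), a repressor of glucosinolate synthesis under low sulfur, had 155, 141 and 159.9 CPM in pp4r3a-1 libraries, 21.3, 18.6 and 21 CPM in pp4r3a-2 and 1.92, 2.2 and 2.23 CPM in Col-0. It rose by 6.16 over Col-0 (SE 0.076, adjusted p 9.86e-38) and 2.91 over pp4r3a-2 (adjusted p 1.78e-31). GGCT2;1, which recycles glutathione, had 99.5, 95.5 and 102 CPM in pp4r3a-1 libraries, 14.4, 13.3 and 14.4 CPM in pp4r3a-2 and 2.04, 1.89 and 2.31 CPM in Col-0, a change of 2.82 between alleles. LSU1 had 104, 81.6 and 100.3 CPM in pp4r3a-1 libraries, 28.3, 29.1 and 25.2 CPM in pp4r3a-2 and 3.21, 2.82 and 3.15 CPM in Col-0, and its relatives LSU2 and LSU3 rose by 3.58 and 4.75. The sulfate reduction gene APR3 rose by 3.25. Against this, 15 of 17 aliphatic glucosinolate genes were higher and 0 lower in pp4r3a-1 (median 0.775), with a median of 0.983 in pp4r3a-2, and between alleles 4 were higher and 11 lower in pp4r3a-1. CYP79F1, the first enzyme of their core pathway, changed by 2.21 in pp4r3a-1 and 2.69 in pp4r3a-2.

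Regulators of the iron-deficiency response rose, while the uptake genes of the root did not. Of 14 iron genes 8 were higher and 5 lower (median 1.31). BHLH38 (AT3G56970) had 195, 191 and 192 CPM in pp4r3a-1 libraries, 77.8, 74.9 and 72.7 CPM in pp4r3a-2 and 14, 14.9 and 15.9 CPM in Col-0, a rise of 3.69 (adjusted p 3.09e-38), and it overlaps AT3G56960. BHLH39, BHLH100 and BHLH101, its partners in the iron-deficiency response, rose by 3.07, 3.25 and 2.15, and over pp4r3a-2 BHLH101 differed by 0.03 (adjusted p 0.64). The uptake genes IRT1 and FRO2 had -0.21 (adjusted p 0.00134) and -0.07 (adjusted p 0.261), and the iron-storage genes FER4 and FER3 fell by 1.76 and 1.24.

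Of 15 phosphate starvation genes 11 were higher and 4 lower (median 0.897). PS2 (AT1G73010), a phosphatase, had 30.6, 32.3 and 30.8 CPM in pp4r3a-1 libraries, 14.6, 15.8 and 16.1 CPM in pp4r3a-2 and 1.29, 1.47 and 1.13 CPM in Col-0, a rise of 4.58 (adjusted p 1.23e-31). The sensor gene SPX1 rose by 3.24, the galactolipid synthase gene MGD3 by 3.36 and the acid phosphatase gene PAP17 by 2.96. Over pp4r3a-2 the differences were 1.01 for PS2, 1.22 for SPX1, 1.55 for MGD3 and 1.18 for PAP17. Nitrogen assimilation went down: 10 of 14 genes were lower and 2 higher (median -0.632, and -0.668 in pp4r3a-2). The asparagine synthetase gene ASN2 fell by 2.02 (adjusted p 3.39e-33), the nitrate reductase genes NIA2 and NIA1 by 1.68 and 1.45, and LBD39, a nitrate-induced repressor, by 1.77, which was 1.02 below pp4r3a-2. The potassium transporter gene HAK5, picked once values were known, rose by 2.47 in pp4r3a-1 and 0.99 in pp4r3a-2.

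Jasmonate genes were mostly higher in pp4r3a-1, 19 of 23 with 2 lower (median 0.896; 1 lower without Col-0 replicate 2, pp4r3a-1 replicate 1 or pp4r3a-1 replicate 2), but the alleles differed gene by gene, with 14 higher and 8 lower in pp4r3a-1 than in pp4r3a-2. LOX2 (AT3G45140), the main lipoxygenase of jasmonate synthesis in leaves, had 840.0, 865 and 839.5 CPM in pp4r3a-1 libraries, 321, 336 and 353 CPM in pp4r3a-2 and 337, 351 and 335 CPM in Col-0. Only the pp4r3a-1 libraries stood apart: their change was 1.31 (adjusted p 3.29e-27), against -0.02 in pp4r3a-2 (adjusted p 0.664), and the alleles differed by 1.33 (adjusted p 2.12e-26). VSP2 (AT5G24770), a storage protein induced by jasmonate and wounding, had 133, 131 and 133 CPM in pp4r3a-1 libraries, 41.8, 38.2 and 41.6 CPM in pp4r3a-2 and 23.9, 26 and 26.8 CPM in Col-0, a rise of 2.38 over Col-0 (adjusted p 9.35e-33) and 1.71 over pp4r3a-2. TAT3 rose by 2.16 and 1.27. LOX4 was higher in both alleles but less so in pp4r3a-1 (3.17 and 4.14), and the repressor gene JAZ7 had -0.78 in pp4r3a-1 and 2.06 in pp4r3a-2.

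Of 20 salicylic acid and camalexin genes 15 were higher and 2 lower in pp4r3a-1 (median 0.845), and the alleles differed in both directions, 8 genes each. PR1 (AT2G14610), the marker of salicylic acid responses, had 12.4, 12.4 and 9.25 CPM in pp4r3a-1 libraries, 40.6, 43.7 and 37.6 CPM in pp4r3a-2 and 1.06, 0.812 and 0.63 CPM in Col-0. It was raised less in pp4r3a-1 than in pp4r3a-2, with changes of 3.76 and 5.59 and a difference of -1.83 (adjusted p 1.02e-15). PBS3, which conjugates a salicylic acid precursor, went the other way, with 2.32 and 0.98 (difference 1.33, adjusted p 9.74e-15). ICS2, one of the isochorismate synthases and picked once values were known, rose by 3.98 in pp4r3a-1 and 2.301 in pp4r3a-2. ACD6, an ankyrin-repeat protein of defence, fell by 2.45.

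**Figure D5:**
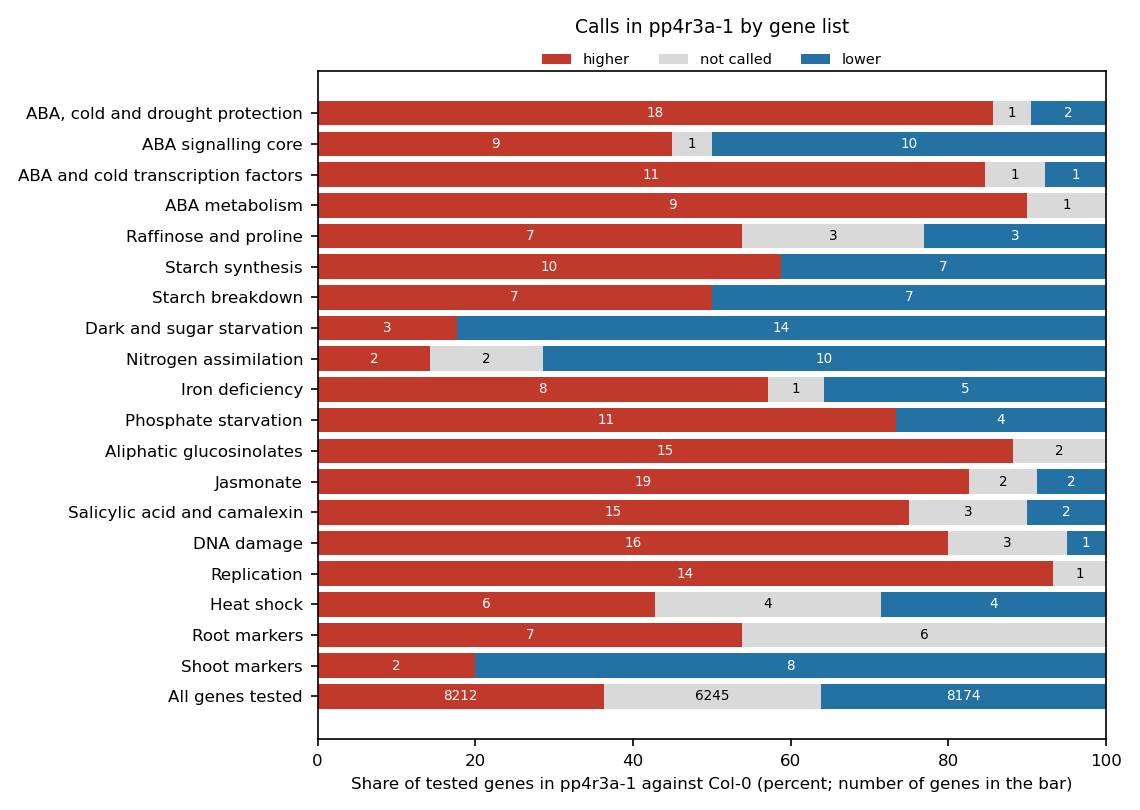
Share of the tested genes of each list called higher (red), not called (grey) or lower (blue) in pp4r3a-1 over Col-0, with the number of genes in each bar. The dark and sugar-starvation list has 14 of 17 genes lower and the ABA, cold and drought list 18 of 21 higher, beside 36.3% higher and 36.1% lower among all genes tested in the lowest bar.

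A small group of genes with a larger effect in pp4r3a-1 was called in opposite directions in the alleles, 9 of the 323 rising and 26 of the 213 falling genes. Beside TPS8 and TPS11, the falling genes at a mean above 5 CPM included KCS12 (AT2G28630), a fatty acid elongase gene, with 7.57, 7 and 6.84 CPM in pp4r3a-1 libraries, 28.4, 30.3 and 26.9 CPM in pp4r3a-2 and 26.9, 25.2 and 26.2 CPM in Col-0. It changed by -1.87 in pp4r3a-1 (adjusted p 1.48e-23) and 0.13 in pp4r3a-2 (adjusted p 0.0322), so the direction in pp4r3a-2 rests on a small value. AT2G20670, of unknown function, had 56.5, 50.1 and 57.5 CPM in pp4r3a-1 libraries, 180.3, 179 and 181 CPM in pp4r3a-2 and 132, 133 and 132 CPM in Col-0, with changes of -1.28 and 0.44. The ethylene response factor gene EBP changed by -1.04 in pp4r3a-1 and 0.20 in pp4r3a-2. Of the rising genes, AT1G69140 had 7.08, 6.53 and 5.92 CPM in pp4r3a-1 libraries, 0.212, 0.513 and 0.794 CPM in pp4r3a-2 and 3.13, 3.17 and 2.73 CPM in Col-0, and AT2G40130 changed by 1.49 in pp4r3a-1 and -0.54 in pp4r3a-2. KCS12, AT2G20670, EBP, AT1G69140 and AT2G40130 were chosen after their values were seen. Both alleles were set against the same Col-0 libraries, and a call between the alleles was part of how these 35 genes were chosen, so their opposite directions have no independent test here.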

How the data were processed

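The libraries were made from polyadenylated RNA of 12-day-old seedlings, per the labels' protocols, with 3 biological replicates per genotype. Each library has a deposited table of whole-number exon and intron counts for 37869 loci, per the file headers. Reads were aligned with STAR, per the submitters' processing notes. Its version, the counting program, its use of strand, the annotation and the genome build are not given in the sources used here, so reads of overlapping or antisense genes cannot be told apart. Loci were matched by ID to the TAIR10.1 annotation, which held 37573 of them. Promoter windows of 250 bases were read there by locus tag. Overlaps with other genes in that annotation are stated in the text for some genes only. Others named here overlap too, among them BGAL4, STP1, TPS5, BT5, ABF3, ICS2, PPX1 and AT2G40130.

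With edgeR 4.0.16, filterByExpr kept 22631 genes, TMM factors scaled the libraries and a robust quasi-likelihood model gave each genotype 1 mean over all 9 libraries, with a biological coefficient of variation of 0.0388. Tests were two-sided, with Benjamini-Hochberg adjustment over all genes, and an SE is the size of a log2 change over the root of its F statistic. SEs and floors of 3 counts cover counting error and the variation among 3 replicates at most. Intron counts of 11133 genes with at least 90 intron counts were fitted with the exon library sizes and TMM factors.

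The genes compared, the 27 gene lists and the rules were chosen with earlier results of these data known, and lists are described by counts and medians, without a test of their own. The named genes are the 4 PP4 genes, the 10 largest rises and 10 largest falls, the 10 rises and 10 falls of the larger-effect set with the largest difference between alleles, all with a mean of at least 5 CPM, no overlap between groups and outside the anthocyanin and clock lists, and up to 4 genes per list by smallest p. Genes of a list named besides these, those picked once their values were known, and the O-acetylserine cluster list fall outside the rule.

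On simulated data for pp4r3a-1 against Col-0, run on 22053 genes, the fit recovered 70 of 76 genes changed 1.5-fold (92.1%), 67 of 68 changed 2-fold (98.5%) and 56 of 56 changed 4-fold, with 10 of 203 calls false. Only those genes were changed, in pp4r3a-1 alone, and all else was drawn at Col-0 means. In the data 36.3% of genes were called higher and 36.1% lower, so the simulated rates do not cover changes that widespread. Alternatives were other scalings, filters, thresholds, limma-voom 3.58.1, DESeq2 1.42.0, a block for the replicate number, a fit of only the groups compared, and omission of each library in turn. Scripts ran under R 4.3.3 and Python 3.11.15, with numpy 2.4.6, pandas 2.3.3 and matplotlib 3.10.9 for tables and figures.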

Additional observations from a re-analysis of the deposited data

Results flagged for a closer look

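For 2 genes named by the rule, the alleles were called in opposite directions against Col-0. Both were picked for a large difference between the alleles, so the value of that difference is a description and not a further result. AT2G16005 (AT2G16005) had 10.3, 10.2 and 10.2 CPM in pp4r3a-1 libraries, 2.04, 1.98 and 1.64 CPM in pp4r3a-2 and 3.29, 2.67 and 3.23 CPM in Col-0, with changes of 1.74 in pp4r3a-1 against -0.69 in pp4r3a-2 and a difference between alleles of 2.43 (edgeR adjusted p 2.47e-19). AT1G02610 (AT1G02610) had 1.78, 1.66 and 1.97 CPM in pp4r3a-1 libraries, 8.4, 9.2 and 7.49 CPM in pp4r3a-2 and 6.78, 6.92 and 5.84 CPM in Col-0, with changes of -1.86 and 0.37 and a difference of -2.22 (edgeR adjusted p 4.02e-17). In AT2G16005 the pp4r3a-1 libraries lay above and in AT1G02610 below all other libraries. The pp4r3a-2 libraries lay on the other side of Col-0 in both genes, without overlap, but nearer to Col-0 than the pp4r3a-1 libraries did.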

How the results depend on the processing

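Counts of calls over all genes and of larger effects stayed within 1.5 times their values under the other scalings, filters, p thresholds and tests. All 147 named results kept their call in 2643 recomputed values, and those called kept their direction. For results not called, direction was not compared. Nearly all of the 147 were picked for large changes or small p, so they were likely to keep their calls. Between alleles only genes named by the larger-effect rule were recomputed, and genes named outside the rules were not. Counts within the 27 gene lists were recomputed only under the other scalings and without each library. Those printed that moved further are given where they stand. List counts of pp4r3a-2 against Col-0 and of larger effects were not recomputed. Nor were counts of the O-acetylserine cluster, of extensin genes and of subsets by role or family. The exception over all genes was the size of change that defines a larger effect: with at least 1.5-fold the rule held for 860 rising and 622 falling genes, and with at least 4-fold for 37 and 33. Leaving out 1 library at a time gave 7825 to 8277 genes higher and 7792 to 8219 lower, 2081 to 2135 and 1566 to 1663 at least 2-fold, and 321 to 337 rising and 199 to 224 falling with a larger effect. DESeq2 gave 310 and 204 of the last, and fitting only the groups compared gave 326 and 182. Deviations of pp4r3a-1 and Col-0 libraries with the same replicate number correlated by -0.041 to 0.003. Such values show no shared shift, but cannot tell whether those libraries were handled together. With the number as a replicate block 8187 genes were higher and 8162 lower, 2079 and 1549 at least 2-fold, and 323 and 213 had a larger effect, of which 322 and 213 were in the sets described.

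Genes near 1 CPM in Col-0 rest on few counts, and their fold changes are the least certain. The reads cannot show which part of PP4R3A is transcribed in pp4r3a-1, and with seedlings taken at an hour that the labels do not give, tissue shares and time of day cannot be told apart from changes within cells.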

Other observations

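Heat shock genes set the alleles apart. Of 14 tested genes 6 were higher and 4 lower in pp4r3a-1 (median -0.01), against 12 higher and 1 lower in pp4r3a-2 (median 1.62), and 12 were lower and 0 higher in pp4r3a-1 than in pp4r3a-2. HSP90.1, a cytosolic chaperone, had 8.53, 10.3 and 8.6 CPM in pp4r3a-1 libraries, 46.2, 51.1 and 45.9 CPM in pp4r3a-2 and 12.4, 10.8 and 12.1 CPM in Col-0. Only pp4r3a-2 was raised, with changes of -0.36 in pp4r3a-1 and 2.02 in pp4r3a-2 (edgeR adjusted p 0.00024 and 1.1e-25). Of 6 small heat shock genes 3 were called higher in pp4r3a-1 and all 6 in pp4r3a-2 (median 4.03).

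Genes of DNA damage and replication rose in both alleles. In pp4r3a-1 16 of 20 damage genes were higher and 1 lower (median 1.13, against 1.29 in pp4r3a-2), with the NAC factor gene NAC044 at 3.71 and the ribonucleotide reductase gene TSO2 at 2.52. Of 15 replication genes 14 were higher and 0 lower (median 0.824), with MCM5 at 1.14 in pp4r3a-1 and 1.13 in pp4r3a-2.

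Genes whose product is named extensin, structural proteins of the cell wall rich in roots, numbered 29 higher and 9 lower of 46 in pp4r3a-1 (median 0.566) and 17 higher and 14 lower in pp4r3a-2 (median 0.126). Over all genes tested, 35.6% were called higher and 35.8% lower for pp4r3a-2. Its extensin counts lay near those shares and do not set these genes apart in that allele. The shares over all genes for pp4r3a-1 were 36.3% and 36.1%. The set was chosen after values were seen. EXT10, which overlaps AT5G06645, had 34.3, 40.4 and 39 CPM in pp4r3a-1 libraries, 11.5, 15.1 and 19.4 CPM in pp4r3a-2 and 13.8, 15.6 and 12 CPM in Col-0, and AT3G54580 changed by 1.198 in pp4r3a-1 and -0.20 in pp4r3a-2. Their repeats are alike, so reads may be shared between copies. Of 13 root markers 11 were higher and 0 lower in pp4r3a-1 than in pp4r3a-2. Over Col-0, 7 were higher and 0 lower in pp4r3a-1, while 3 were higher and 7 lower in pp4r3a-2. The root hair regulator RHD6 changed by 0.11 in pp4r3a-1 and -1.29 in pp4r3a-2. The part of the root markers in the extensin values was not tested.

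Of the remaining lists, 4 of 12 cytokinin response genes were higher and 5 lower in pp4r3a-1 (median -0.178), shares near those of all genes tested, and without pp4r3a-1 replicate 1 the counts were 2 and 7. Further, 6 of 10 ethylene genes were higher and 3 lower (median 1.12), and 10 of 14 genes of cell wall growth were higher and 2 lower (median 0.357). The touch-induced xyloglucan gene XTH22 rose by 2.21, the ethylene synthesis genes ACS6 and ACS2 by 3.19 and 2.82, and the response regulator gene ARR8 fell by 1.15. Of 8 seed genes tested 6 were higher and 1 lower (0 lower without Col-0 replicate 1, median 1.87), with the oleosin gene OLEO1 at 3.78 in pp4r3a-1 and 4.33 in pp4r3a-2. Of 26 anthocyanin genes 25 were higher and 0 lower in pp4r3a-1 (median 2.81, against 1.79 in pp4r3a-2).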
